A study of Mus musculus with 6 samples.

Results

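On the lncRNA array used here, 2020 of the 59709 probes for mouse transcripts belonged to none of the large named probe sets. They were the probes left once the numbered design probes, the MM9LINCRNA and humanlincRNA sets, the cDNA probes named AK plus digits, the negative controls, the ultraconserved-element probes and the probes for NM_ mRNA records were taken away. Of these 2020 probes, 1090 carried the accession of an expressed sequence tag (EST), 76 an Ensembl transcript name, 68 an AK cDNA accession given in the annotation column, 51 a UCSC known-gene name, 39 another GenBank cDNA accession and 5 a RefSeq NR_ accession. The remaining 691 were named mouselincRNA plus a number and a sign. Those 691 names are not sequence accessions, although the probes meet the same rule, so they were treated as a group of their own beside the 1329 accession-named probes. Every accession was represented by 1 probe. The names fell under 50 letter prefixes, 25 of them with 20 or more members.

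RNA was hybridized from 6 heart biopsies, each on 1 array with 1 colour (Cy3). The mice were labelled as female, aged 12 months and of strain C56BL7, and no genetic alteration was named for any group. Ischemic preconditioning (IPC) was 4 cycles of 4 min of coronary ligation and 4 min of reperfusion, followed by 30 min of reperfusion. Mice 004 and 008 gave the area at risk (AAR), the tissue supplied by the ligated artery (IPC AAR, n = 2), and the remote myocardium (RM), a non-ischemic region (IPC RM, n = 2). Mice 012 and 013 had a sham procedure and gave the same region as the AAR (sham AAR, n = 2). The same cycle times are listed for the sham samples, so that what the sham procedure consisted of is unclear from them. The study's methods give a different strain name, a different cycle length and mice of both sexes. They place the RM in the right ventricle, so that ischemia and the ventricle sampled cannot be told apart between AAR and RM. All 4 IPC arrays lay on slide 1 and both sham arrays on slide 2, so that slide and procedure cannot be told apart in comparisons with sham AAR. None of the 42 marker genes listed for cardiac and other cell types, with a few known lncRNAs, had a probe with a gene name in the files used here, so the tissue labels were not checked against markers. Replicates within a group were separate mice. The p-values of the main fits rest on the spread between the 2 arrays of each group, drawn toward the spread typical of all probes tested. AAR and RM came from the same IPC mice, and their main fit took the arrays as unpaired.

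An EST is a short single-pass read of a cloned cDNA, and many ESTs outside gene models were later collected as candidate long non-coding RNAs (lncRNAs). The letters of an accession tell which series of database records it belongs to, not what the transcript does: the AV, BB, BY and AK series are RIKEN mouse cDNA records. UCSC known-gene and Ensembl names stand for transcript models assembled from such records. LncRNAs act in the nucleus and cytoplasm as scaffolds, guides and decoys for proteins and other RNAs, and many are transcribed at low levels. Brief cycles of coronary occlusion, as in IPC, protect the heart against a later, longer occlusion.

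Only 4 of the 2020 probes could be tied to a gene symbol, all through NR_ accessions in the RefSeq annotation. NR_015516 and NR_027950 are 2 transcript records of the lncRNA gene 4930526I15Rik, NR_003547 is the transcribed pseudogene Zf12, and NR_028110 is a non-coding transcript of Ppp2r3d, which encodes a regulatory subunit of protein phosphatase 2A. The 4930526I15Rik promoter is shown because, among the 4 probes with a symbol, 2 belong to this gene, and both were higher in the AAR than in the RM of each IPC mouse (values below). The sequence is from RefSeq, build GRCm38.p6, chr9:124423537-124423836, plus strand, and runs from 250 bases before the transcript start to 50 bases after it. Capitals mark matches to the E-box CACGTG, the CCAAT box CCAAT and the GC box GGGCGG on either strand.
4930526I15Rik: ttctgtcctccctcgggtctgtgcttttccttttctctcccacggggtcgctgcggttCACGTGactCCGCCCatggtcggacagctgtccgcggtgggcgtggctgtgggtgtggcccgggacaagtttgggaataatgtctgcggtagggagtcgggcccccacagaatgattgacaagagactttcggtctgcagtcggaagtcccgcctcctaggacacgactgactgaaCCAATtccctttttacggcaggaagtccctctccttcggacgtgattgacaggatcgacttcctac
The E-box started 192 bases, the GC box 183 bases and the CCAAT box 16 bases before the transcript start, and TATAAA was not in the window. None of these 4 motifs overlapped another here. CACGTG was in 7.15% of the 32851 RefSeq mouse promoters of this length, CCAAT in 37.4%, GGGCGG in 35.7% and TATAAA in 13.6%, both strands counted.

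Fewer of these probes gave a signal than of the array as a whole. A probe counted as measured on an array when the scanner software set it well above background. On the IPC AAR arrays 54.5% and 57.0% of the 2020 members were measured, on the IPC RM arrays 62.8% and 66.7%, and on the sham AAR arrays 44.6% and 55.7%. Over all probes the shares were 68.0% and 70.6%, 78.4% and 80.5%, and 61.0% and 72.2%. Members lay below all probes on each of the 6 arrays, and in both sets the RM arrays were highest and the array of sham mouse 012 lowest. A total of 847 members (41.9%) were measured on all 6 arrays, against 57.9% of all probes, and 533 (26.4%) on none, against 15.2%.

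The name groups differed in this respect. Of the Ensembl names 67.1% were measured on all 6 arrays, of the UCSC names 62.7%, of the other GenBank cDNAs 61.5% and of the AK cDNAs 52.9%. The ESTs reached 42.4% and the mouselincRNA probes 34.4%, the latter close to the 31.6% of the humanlincRNA probes outside the set described here. The probes from a separately numbered design set (213 members, among them every UCSC, Ensembl, RefSeq and AK name) were measured more often on each array (63.8% to 81.2%) than the other accession-named members (45.9% to 68.4%). Among the 21 EST prefixes with at least 20 members, the share measured on all 6 arrays ran from 14.3% of the CN names to 62.7% of the AV names. How the probes of each group were selected was not tested here.

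**Figure D1:**
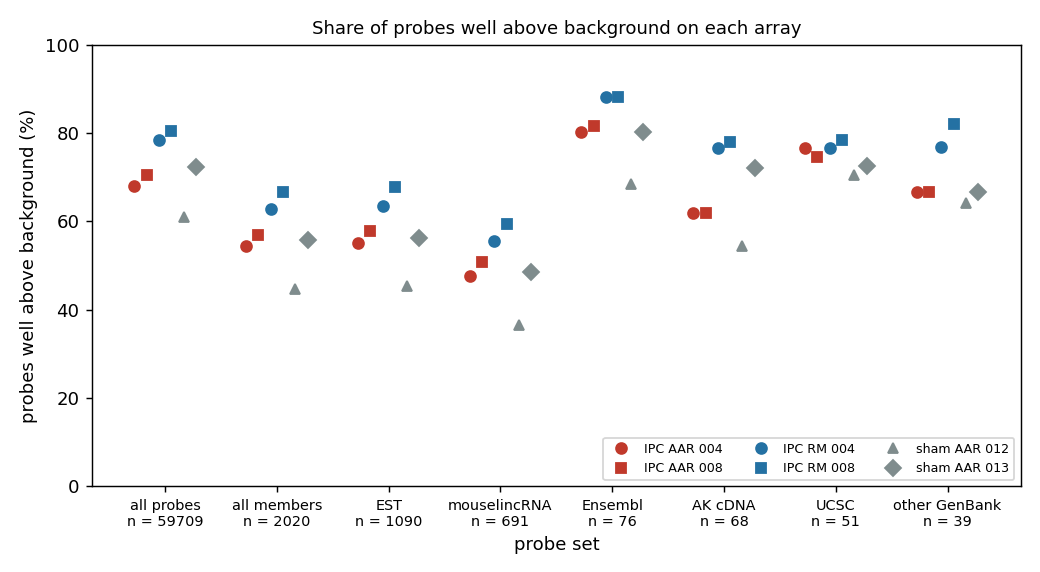
Share of probes well above background (%, y axis) on each of the 6 arrays, for all probes, all members and the 6 larger name groups (x axis, with the number of probes); each point is 1 array. All members sit below all probes on every array, and the mouselincRNA probes are lowest of the name groups on every array. The Ensembl probes are highest on all but the array of sham mouse 012, where the UCSC names are (70.6% against 68.4%).

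Some members were measured in 1 region of the IPC hearts and not in the other. Both RM arrays and neither AAR array measured 96 members (4.75%, against 6.77% of all probes), and both AAR arrays and neither RM array measured 6 (0.297%, against 0.162%). The BI prefix, a series of EST records, held 7 of its 27 members (25.9%) in the first class, and the AK cDNAs 8 of 68 (11.8%). Over all spots the RM arrays also measured more (78.5% and 80.6%) than the AAR arrays (68.2% and 70.7%), and the part of this gap in the count of 96 was not tested.

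The AAR and the RM of the preconditioned hearts were compared first. To be tested, a probe had to be measured on each array of either group, and it was called when limma gave an adjusted p below 0.05, over all probes tested, with a fold change above 2. Of the 1237 members tested, 124 were called (10%, against 20.6% of all 46232 probes tested). In the AAR 73 members were higher (7.29% of all probes were) and 51 lower (13.3% of all probes were). The 73 higher ones were 5.90% of the members tested and the 51 lower ones 4.12%, so that both shares were under those of all probes and the gap was wider for lower calls. The median log2 fold change of the tested members was 0.32, against 0.20 over all probes, and 893 of the 1237 members had a value above 0. In tissue biopsies, fewer cells of a type and less RNA per cell cannot be told apart.

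The count of calls depended on single arrays. Over all probes it also rose without mouse 008's AAR and fell without either RM array. Without mouse 008's AAR 250 members were called (71.2% of them higher), without mouse 004's RM 56 (33.9% higher) and without mouse 008's RM 70 (35.7% higher), the lone array then being assumed to vary like the other group. Higher calls were thus the majority with all 4 arrays (58.9%) and the minority without either RM array. With each array scaled to its 75th percentile 188 members were called, 72.3% of them higher against 58.9% with quantile normalization, while the median of all probes moved up by 0.13 on the log2 scale. The count was 46, with 23 higher and 23 lower, after background correction by normexp, which moved that median by -0.11, and 81 with the methods' t-test.

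By name group the calls were uneven. Over all probes tested, 20.6% were called, 7.29% higher and 13.3% lower, and the UCSC names, the AK cDNAs and the numbered design set lay near the first share. Of the ESTs 62 of 669 tested were called (9.27%), 40 higher and 22 lower, and of the mouselincRNA probes 26 of 374 (6.95%), 18 higher and 8 lower. Among the UCSC names 9 of 39 were called (23.1%), 2 higher and 7 lower, and among the AK cDNAs 12 of 51 (23.5%), 4 higher and 8 lower. The Ensembl names had 9 calls of 69 (13.0%), 5 higher and 4 lower, the other GenBank cDNAs 5 of 30 (16.7%), 4 higher and 1 lower, and the RefSeq names 1 of 5. Median log2 fold changes were 0.37 for mouselincRNA and for other GenBank cDNAs, 0.31 for ESTs, 0.14 for Ensembl, 0.11 for UCSC and 0.08 for AK names. The numbered design set as a whole had 33 calls of 172 (19.2%), 12 higher and 21 lower. The accession-named members outside it had 65 of 691 (9.41%), 43 higher and 22 lower. For comparison, the MM9LINCRNA set had 336 calls of 2499 (13.4%) and the humanlincRNA set 34 of 634 (5.36%). Differences between name groups were described and not tested.

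**Figure D2:**
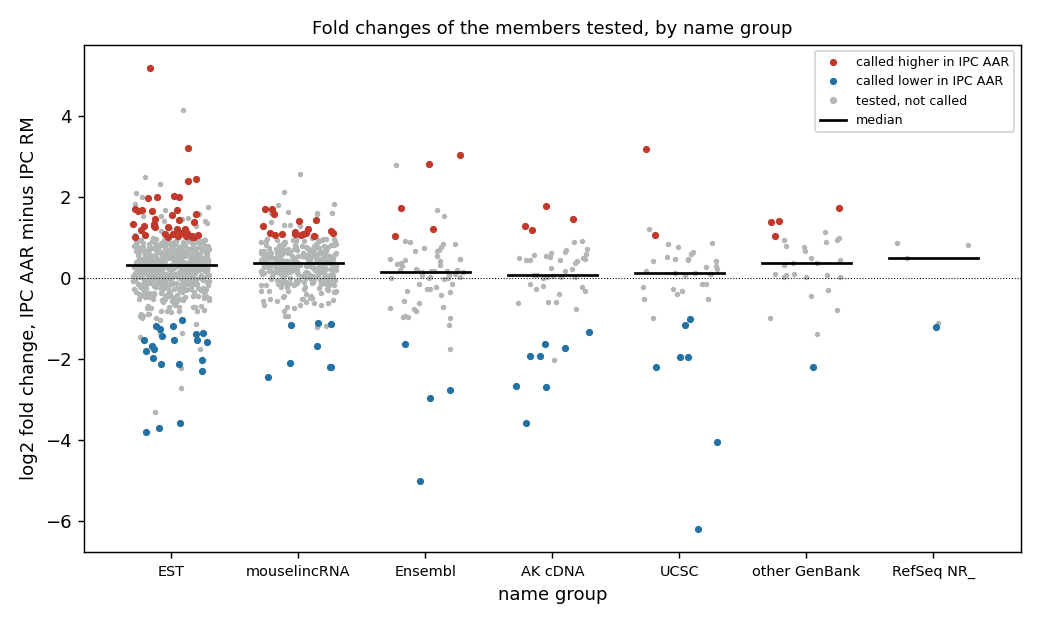
Log2 fold change, IPC AAR minus IPC RM (y axis), of every member tested in each name group (x axis); red points were called higher, blue points called lower, grey points not called, and black lines are medians. The called values run from 5.19 (BB649909) down to -6.20 (uc009sjz.1).

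Among EST prefixes, 4 of 54 AA members tested (7.41%) and 5 of 50 BB members (10%) were called, all higher in the AAR. The calls of CJ (3 of 32), BU (2 of 22) and AU (1 of 11) were also all higher. Those of BQ (1 of 16) and CA (1 of 29) were lower. Over all probes tested, 7.29% were called higher and 13.3% lower, and differences between prefixes were not tested. The BY names, RIKEN ESTs and the prefix with the most members among ESTs, had 4 higher and 4 lower calls of 79. No CR member of 29 tested, no AW member of 23 and no CN member of 8 was called by limma. At an unadjusted p below 0.05 stood 11, 10 and 4 of them, and 26814 of all 46232 probes tested. The BI names had a median log2 fold change of -0.05, the only median below 0 among the 21 EST prefixes of this size, from 15 members tested, with 1 higher and 2 lower calls.

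**Figure D3:**
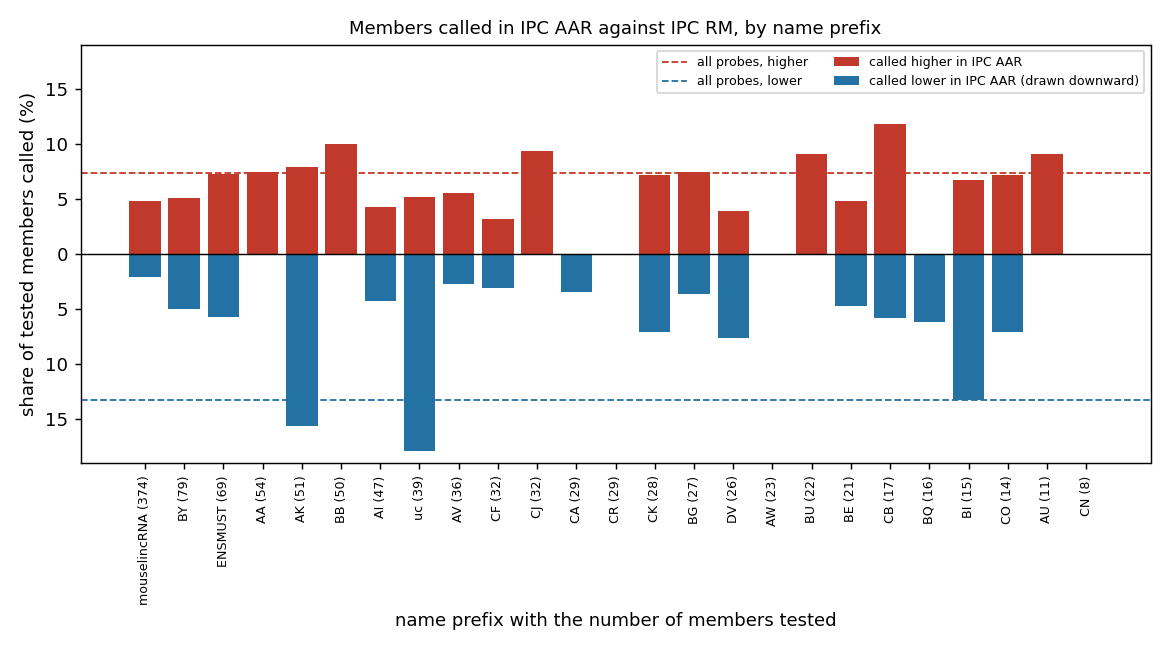
Share of tested members called (%, y axis) in IPC AAR against IPC RM for each prefix with at least 20 members, ordered by the number tested, which stands in brackets (x axis); bars above 0 are called higher and bars below 0 called lower. Dashed lines are the shares over all probes, 7.29% higher and 13.3% lower.

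Among members measured on all 4 arrays, the largest rise was that of uc008sno.1, a UCSC transcript model. Its log2 signal, after quantile normalization, was 10.77 and 10.76 in the AAR of mice 004 and 008, 7.60 and 7.57 in their RM, and 8.90 and 8.08 in the sham AAR of mice 012 and 013. Both AAR values lay above all others, and the fold change was 9.04 (log2 3.18 ± 0.07 SE, adjusted p = 0.000761). The EST BU946273 read 7.87 and 7.80 in the AAR, 5.35 and 5.42 in the RM and 6.40 and 6.40 in sham AAR. It rose 5.45-fold over the RM (adjusted p = 0.00108), and the 3 groups did not overlap.

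A further 3 ESTs rose while the RM stayed near the sham level. BB770978, a RIKEN EST, read 10.29 and 10.39 in the AAR, 8.46 and 8.17 in the RM and 8.55 and 8.10 in sham AAR (log2 fold change over the RM 2.03 ± 0.14 SE, adjusted p = 0.00329). BX523225 read 9.004 and 9.07 in the AAR, 7.07 and 7.07 in the RM and 7.28 and 7.05 in sham AAR (1.97 ± 0.08 SE, adjusted p = 0.00131). In both, the AAR arrays stood clear of the other 4. AA089093 read 7.02 and 5.93 in the AAR, 4.51 and 4.45 in the RM and 4.99 and 4.43 in sham AAR. Its AAR arrays differed from each other by more than any of the other 4 did, and its call (log2 1.99, adjusted p = 0.0308) was lost without mouse 004's RM (adjusted p = 0.162) and without mouse 008's RM (adjusted p = 0.151).

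For other risen members the sham arrays lay near the AAR or apart from each other. The EST BF787814 read 7.75 and 7.60 in the AAR, 5.52 and 5.83 in the RM and 7.26 and 6.43 in sham AAR, so that the RM was lowest. The probe mouselincRNA1623+ read 8.50 and 8.41 in the AAR, 6.86 and 6.64 in the RM and 8.34 and 8.08 in sham AAR, with only the RM standing apart. The RM was lowest of the 3 groups for the EST BB620894 as well (3.43 and 3.55, against 5.51 and 4.90 in the AAR), and its sham value on the array of mouse 012 was not above background. The Ensembl transcript ENSMUST00000121804 rose 3.34-fold over the RM (adjusted p = 0.00179), but its sham arrays read 9.18 and 5.86, on either side of both IPC groups, and the call was lost when all 6 arrays shared 1 fit (adjusted p = 0.273). The AK cDNA AK153799 had the same kind of spread, 5.45 and 7.61 in sham AAR, beside 8.18 and 8.55 in the AAR and 6.78 and 6.40 in the RM. The call of AK153799 (adjusted p = 0.00932) was lost without mouse 004's RM (adjusted p = 0.065) and without mouse 008's RM (adjusted p = 0.0677), and that of BB620894 likewise (adjusted p = 0.0136, then 0.109 and 0.0897). With normexp several rises were smaller: log2 1.52 in place of 2.45 for BU946273, 1.23 in place of 2.001 for BF787814, 1.13 in place of 1.74 for ENSMUST00000121804, and 0.90 for AA089093 and 0.48 for BB620894, both then not called.

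Members lower in the AAR reached larger folds. ENSMUST00000159764 read 6.51 and 6.63 in the AAR, 11.61 and 11.56 in the RM and 8.16 and 10.14 in sham AAR, a 32.4-fold fall against the RM (log2 -5.02 ± 0.09 SE, adjusted p = 0.000723). The UCSC model uc008ork.1 read 7.05 and 7.22 in the AAR, 11.18 and 11.17 in the RM and 9.25 and 10.94 in sham AAR, 16.5-fold lower (adjusted p = 0.000761). Both had AAR values below all other arrays, with the sham arrays spread between AAR and RM. The EST BQ895499 read 4.52 and 4.63 in the AAR, 8.30 and 8.02 in the RM and 7.83 and 8.45 in sham AAR, 12.0-fold lower than the RM (adjusted p = 0.00127), a log2 fold change of -3.59 that was -1.95 with normexp. ENSMUST00000099215 read 7.87 and 7.98 in the AAR, 10.64 and 10.70 in the RM and 9.92 and 10.52 in sham AAR, 6.73-fold lower (adjusted p = 0.001). For these 2 transcripts the RM and sham arrays lay close together and the AAR apart.

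The next largest falls were those of 6 members with log2 fold changes from -2.29 to -1.95. They were the ESTs CD354001, DV645173, CK020084 and AV038163 and the UCSC models uc009shf.1 and uc008dxf.1. In all 6 the AAR arrays were the lowest of the 6 arrays. With normexp the log2 fold change was -1.05 for CD354001 and -1.25 for DV645173, in place of -2.29 and -2.12. CD354001, at 4.34 and 4.78 in the AAR, varied most in the RM (7.40 and 6.30), and its call (adjusted p = 0.027) was lost with the mouse as a replicate block (adjusted p = 0.059), without mouse 004's AAR (0.0663) and without either RM array (0.0791 and 0.0529). AV038163, a RIKEN EST, read 16.28 and 16.26 in the AAR, 18.24 and 18.24 in the RM and 17.62 and 17.77 in sham AAR. Its log2 fold change was -1.97 with quantile normalization and -0.88 with each array scaled to its 75th percentile, where it was not called. The sham arrays of CK020084 were 9.32 and 11.44, beside 8.31 and 8.28 in the AAR and 10.32 and 10.31 in the RM, and its call was lost when all 6 arrays shared 1 fit (adjusted p = 0.092).

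**Figure D4:**
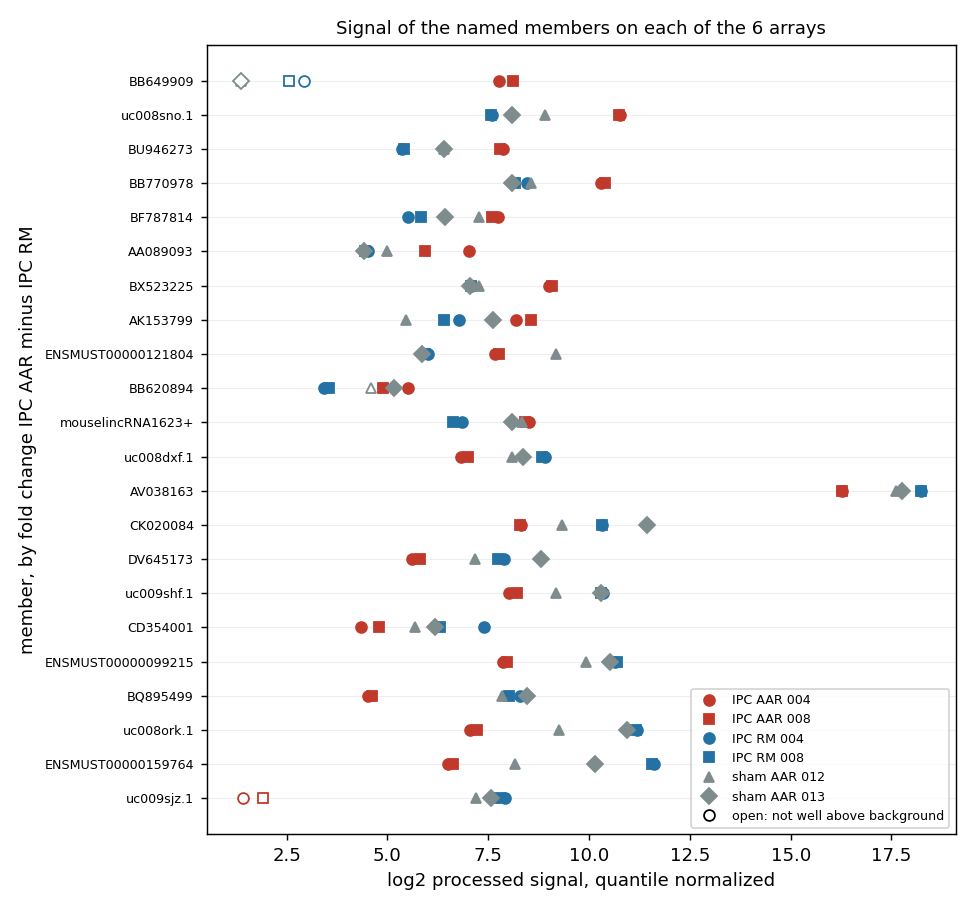
Log2 processed signal after quantile normalization (x axis) of 22 named members (y axis, ordered by fold change) on each of the 6 arrays; colour gives the group, the marker shape the mouse, and open markers were not well above background. IPC AAR (red) and IPC RM (blue) do not overlap for any member drawn, while sham AAR (grey) lies between them, beside 1 of them or spread over both. The gap between AAR and RM was largely set by the choice, since nearly all were picked as calls between these groups.

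A number of called members were below background in 1 region. For these a lower limit of the fold change is given where there was one, and it holds for the processed signals only. Of the 51 lower calls, 19 were measured on neither AAR array, and of the 73 higher calls 5 on neither RM array. Measured on all 4 arrays were 31 of these lower and 65 of these higher calls. Over all probes the same held for 3914 of 6135 lower and 3177 of 3370 higher calls, so that lower calls were more often dim there too. The limit sets the group mean of the brighter region against the lowest signal that the scanner software called above background on each array of the other, or the probe's own signal there if higher. The RIKEN EST BB649909 read 7.76 and 8.12 in the AAR and was not well above background on the other 4 arrays, which made it at least 33.8-fold higher than in the RM (adjusted p = 0.00137) and at least 14.7-fold higher than in sham AAR (adjusted p = 0.0123). In the opposite direction, uc009sjz.1 was not well above background in the AAR and read 7.92 and 7.78 in the RM and 7.19 and 7.57 in sham AAR. It was at least 14.4-fold lower in the AAR than in the RM (adjusted p = 0.00111) and at least 10.4-fold lower than in sham AAR (adjusted p = 0.0146). Both were called in the comparison with the RM under each alternative that could be computed, but these limits hold for the processed signals. With normexp the log2 fold change of BB649909 was 2.26 over the RM and 2.25 over sham AAR, and that of uc009sjz.1 was -2.15 and -1.66, all smaller than the limits.

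Other calls of this kind had lower limits, which also hold for the processed signals only. The EST AI663732 read 5.65 and 5.59 in the AAR and was at least 6.79-fold higher than in the RM, and the EST CJ270168 at least 3.25-fold higher. ENSMUST00000164301 and ENSMUST00000126395 were at least 3.74-fold and 2.96-fold higher. With normexp the log2 fold change of ENSMUST00000164301 was 0.47, under that limit, and its call was lost. On the lower side, the EST BG342399 read 6.74 and 6.47 in the RM and was at least 6.05-fold lower in the AAR, BY133543 at least 5.22-fold, the AK cDNA AK171173 at least 4.47-fold and mouselincRNA0188+ at least 3.13-fold. The call of BY133543 (adjusted p = 0.0391) was lost with the mouse as a replicate block (adjusted p = 0.0539), without mouse 004's RM (0.191), without mouse 008's RM (0.168), without a filter (0.0724), with the methods' t-test (0.149), with 1 fit of 6 arrays (0.0863) and with normexp, where its log2 fold change was -0.99. Without mouse 004's AAR it was -2.64 and without mouse 008's AAR -4.98, in place of -3.81. For the AK cDNA AK041495 the limit was 1.96-fold and for mouselincRNA0538- 1.29-fold, and the GenBank cDNA X67863 allowed no limit above 1. Both AK041495 and X67863 lost their calls with normexp (log2 -0.69 and -0.23), and AK041495 also with 1 fit of 6 arrays (adjusted p = 0.092).

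The RefSeq-named members gave the only values tied to genes. NR_015516 read 11.53 and 11.58 in the AAR, 10.72 and 10.65 in the RM and 11.22 and 11.18 in sham AAR, and NR_027950 read 11.86 and 11.89, 11.08 and 11.04, and 11.22 and 11.21. Both 4930526I15Rik probes were thus highest in the AAR and lowest in the RM, with log2 fold changes of 0.87 ± 0.08 SE (adjusted p = 0.00541) and 0.82 ± 0.07 SE (adjusted p = 0.00549). They passed the p threshold but stayed under 2-fold, and passed both only with scaling to the 75th percentile (1.17 and 1.18). The Zf12 probe NR_003547 read 9.06 and 8.99 in the AAR, 10.19 and 10.28 in the RM and 9.54 and 9.88 in sham AAR, and was called lower in the AAR (2.32-fold, adjusted p = 0.00328). That call was lost without mouse 004's RM (adjusted p = 0.0537) and without mouse 008's RM (adjusted p = 0.051). A pseudogene probe can also take up RNA of its parent genes, which was not tested. The Ppp2r3d probe NR_028110 read 8.91 and 8.97 in the AAR, 8.50 and 8.38 in the RM and 9.04 and 9.01 in sham AAR. Its log2 difference from the RM was 0.50 (adjusted p = 0.0209), under 2-fold. The unmatched NR_037700 was not called (log2 -1.10, adjusted p = 0.0916) and was measured on only 1 of the 2 AAR arrays.

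For the members with the highest mean signal, values in AAR and RM lay close together under quantile normalization. The probes with the highest mean signal in their name groups were AV131371 among ESTs, uc009vfa.1 among UCSC names, ENSMUST00000119184 among Ensembl names, mouselincRNA0077+, AK050117 and BC160302. Their log2 fold changes between AAR and RM ran from -0.14 to 0.22, and none was called. With each array scaled to its 75th percentile, the values ran from 0.76 to 1.12, and AV131371 (1.07) and mouselincRNA0077+ (1.12) were called, so that levels at the bright end depended on the scaling.

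The mouselincRNA probes came as pairs, since 340 of their 351 numbers had both a probe named + and a probe named -. The files used here do not state what the sign stands for. The 2 kinds were measured about equally often on all 6 arrays (117 of 343 probes named + and 121 of 348 named -). Of the 340 pairs, 43 had both probes measured there and 149 had 1 of the 2. Whether 43 differs from what these 2 shares alone would give was not tested. In the AAR against the RM both probes were tested in 98 pairs. Their log2 fold changes were both above 0 in 65 pairs, both below 0 in 3 and of opposite sign in 30, and correlated with r = -0.08 across the 98 pairs, which share the same 4 arrays. Of all 374 mouselincRNA probes tested, 287 had a value above 0, and of all 46232 probes tested 28265 did. With that share, 2 unrelated probes would often both lie above 0. The median absolute difference between the 2 probes of a pair was 0.40.

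In 24 pairs 1 probe was called, and in 11 of these the other probe was tested and not called. In 1 pair, mouselincRNA1623, both were called, in opposite directions. Of all mouselincRNA probes tested 6.95% were called. While mouselincRNA1623+ rose as given above, mouselincRNA1623- read 7.69 and 7.45 in the AAR, 9.16 and 9.36 in the RM and 7.54 and 8.57 in sham AAR (log2 -1.69, adjusted p = 0.00461). The AAR was thus above the RM on the + probe and below it on the - probe in both mice. In the pair mouselincRNA0538, the - probe was called lower (adjusted p = 0.0185) while the + probe had a log2 fold change of 0.03 (adjusted p = 0.843). The call of mouselincRNA0538- was lost without mouse 004's RM (adjusted p = 0.121), without mouse 008's RM (0.114), with the methods' t-test (0.0956) and with normexp (log2 -0.37). In the pair mouselincRNA1379, the - probe was lower (log2 -1.15, adjusted p = 0.00761) and the + probe had 0.74 (adjusted p = 0.493).

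**Figure D5:**
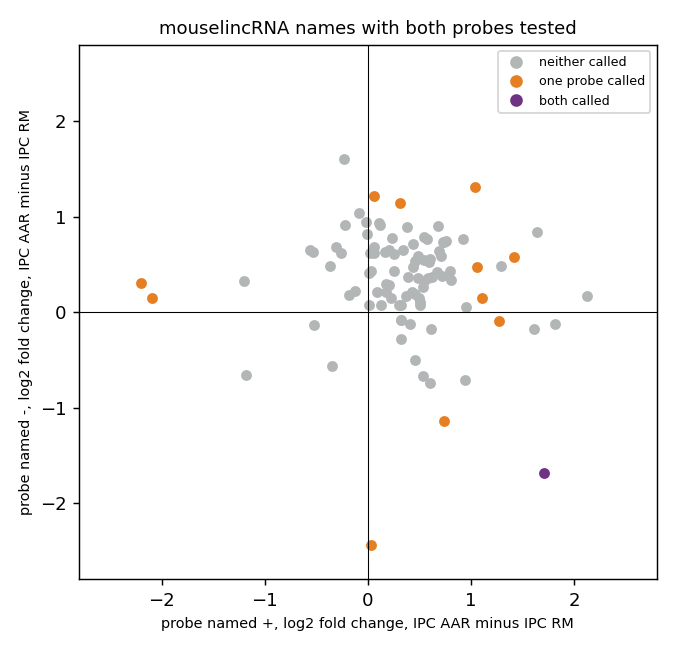
Log2 fold change, IPC AAR minus IPC RM, of the probe named + (x axis) and the probe named - (y axis) for the 98 mouselincRNA numbers with both probes tested; each point is a pair, grey with neither probe called, orange with 1 and purple with both. The purple point is mouselincRNA1623, at 1.71 and -1.69.

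The same region was then compared with and without IPC. Of 1040 members tested between IPC AAR and sham AAR, 40 were called (3.85%, against 8.56% of all probes), with 28 higher in IPC AAR (2.78% of all probes were) and 12 lower (5.78% of all probes were). The median log2 fold change was 0.39 for the members and 0.23 for all probes. By name group the calls were 25 of 564 ESTs (18 higher, 7 lower), 8 of 309 mouselincRNA probes (7 higher, 1 lower), 4 of 36 UCSC names (1 higher, 3 lower), 2 of 59 Ensembl names, 1 of 27 other GenBank cDNAs, none of 41 AK cDNAs and none of 4 RefSeq names. At an unadjusted p below 0.05 in limma stood 11 of the AK cDNAs, 2 of the RefSeq names and 14395 of all 40161 probes tested.

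The count moved with single arrays and settings. Over all probes it also rose without sham mouse 012 and fell without either IPC AAR array, but it fell without sham mouse 013. Without sham mouse 012 there were 217 calls, and without either IPC AAR array 0 (133 and 153 members at an unadjusted p below 0.05). Without sham mouse 013 there were 46, of which 18 (39.1%) were higher, against 70.0% with all 4 arrays. Over the members measured on both sham arrays, the median absolute log2 difference between mice 012 and 013 was 0.40, and 87 of 865 (10.1%) differed by more than 2-fold. The AAR arrays differed by 0.14 and the RM arrays by 0.16, with 48 of 1023 and 26 of 1226 members beyond 2-fold. The counts were 74 with scaling to the 75th percentile, 84 with 1 fit of all 6 arrays, 25 with normexp, and 0 without the filter on dim probes and with the methods' t-test (393 and 183 at an unadjusted p below 0.05).

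Among the members called against sham AAR and measured on all 4 arrays, uc008sno.1 was 4.81-fold higher (adjusted p = 0.0375), BB770978 4.04-fold (adjusted p = 0.0256) and BX523225 3.67-fold (adjusted p = 0.0207). BU946273 was 2.69-fold higher (adjusted p = 0.0236). On the lower side BQ895499 was 11.9-fold lower (adjusted p = 0.0183), ENSMUST00000099215 4.93-fold (adjusted p = 0.0267), AI551087 3.93-fold (adjusted p = 0.0204) and uc008ict.1 3.76-fold (adjusted p = 0.0221). The log2 fold change of BQ895499 against sham AAR was -1.85 with normexp, in place of -3.57. The UCSC model uc008ict.1 read 9.36 and 9.41 in IPC AAR, 11.32 and 11.32 in IPC RM and 11.14 and 11.44 in sham AAR, and the EST AI551087 7.23 and 7.504, 8.96 and 9.12, and 9.32 and 9.37. In both, the AAR of the preconditioned hearts was the group that stood apart. Each call against sham AAR named here was lost without either IPC AAR array, without a filter and with the methods' t-test, and that of AI551087 also without sham mouse 013 (adjusted p = 0.0534). AI551087 was called against the RM too (3.19-fold, adjusted p = 0.00476), a call lost without mouse 004's RM (adjusted p = 0.0606) and without mouse 008's RM (adjusted p = 0.0585).

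In other members both regions of the preconditioned hearts lay on the same side of sham AAR. CF728761, an EST, read 10.18 and 10.06 in the AAR, 10.34 and 10.47 in the RM and 8.44 and 8.07 in sham AAR. It was 3.65-fold higher in IPC AAR than in sham AAR (adjusted p = 0.0253), while the log2 difference between AAR and RM was -0.28 (adjusted p = 0.0931). AW120561 read 9.35 and 9.43 in the AAR, 8.75 and 9.16 in the RM and 7.67 and 7.25 in sham AAR, 3.82-fold higher than in sham AAR (adjusted p = 0.0257). BX521937 was lower instead, at 4.60 and 5.30 in the AAR, 5.83 and 5.53 in the RM and 7.36 and 6.98 in sham AAR, 4.66-fold lower than in sham AAR (adjusted p = 0.0371). That call was lost without any 1 of the 4 arrays (adjusted p from 0.069 to 0.173) and with normexp, where the log2 fold change was -0.99 in place of -2.22. For these 3 ESTs all 4 IPC arrays, on slide 1, lay on 1 side of both sham arrays, on slide 2. The EST AU017166 was not well above background on the 4 IPC arrays and read 5.82 and 4.51 in sham AAR, at least 2.24-fold lower in IPC AAR (adjusted p = 0.0324).

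Members called between AAR and RM were also set beside the sham values. Of those measured on all 6 arrays, 58 were higher in the AAR, with a median log2 fold change of 1.26 over the RM and 0.79 over sham AAR, and 5 of them were called against sham AAR. The 28 lower ones had medians of -1.68 and -1.36, and 8 of them were called against sham AAR. Both comparisons use the same AAR arrays, so that these values are not independent. The members were picked by their AAR values, which in itself favours the same sign against sham AAR. Over all probes tested, 2.78% were called higher and 5.78% lower against sham AAR, and probes picked in the same way were not counted.

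Between the RM and sham AAR no member was called of 1232 tested (0% of all 46061 probes). The median log2 fold change was 0.04 for the members and 0.03 for all probes. At an unadjusted p below 0.05 in limma stood 198 of the 1232 members and 7554 of all 46061 probes. The lowest adjusted p was 0.159 over all probes and over the members, 7 of which shared it. The EST CF728761 was among these 7 (log2 2.15 ± 0.20 SE). The methods' t-test called 0 and 1 fit of all 6 arrays 2. Without sham mouse 012 there were 120 calls and without sham mouse 013 there were 156, while without either RM array there were 0 (82 and 71 members at an unadjusted p below 0.05). With 2 arrays a group an exact permutation test of a single member could not give a two-sided p below 0.333, and none was used.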

How the data were processed

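Total RNA from the 6 biopsies was hybridized to an lncRNA expression array, Arraystar Mouse LncRNA Array, designed on build mm9. The deposited intensity values are the processed signals that the authors obtained with Agilent Feature Extraction 11.0.1.1, per the file headers, background-subtracted and spatially detrended. Probe coordinates and sequences were not used here. The log2 signals were averaged over spots of a probe after removal of outlier spots and quantile normalized over 6 arrays. Each comparison was fitted on its 4 arrays with limma 3.58.1 (R 4.3.3) and Benjamini-Hochberg adjustment over all probes tested. Named members were the 10 largest rises and 10 largest falls between AAR and RM and the 5 and 5 between AAR and sham AAR, among calls measured on all 4 arrays, the brightest and the most changed member of each larger name group, and those with gene symbols. Members below background in 1 region, mouselincRNA pairs, NR_037700 and AU017166 were added after their values were seen. The members and lists were chosen with earlier results of these data known. AAR and RM came from the same 2 IPC mice, and deviations of the same mouse from its group means correlated with r = -0.09 over the 46232 probes tested and -0.11 over the members. The table of values for the whole series was not used, because its columns could not be matched to samples. Alternatives were normexp (offset 50), 75th percentile scaling, quantiles taken over 4 arrays, both other filters, the methods' t-test, 1 fit of 6 arrays, outlier spots kept, the mouse as a block, and each array left out. No spot was saturated, and 2 arrays a group limit the precision.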

Additional observations from a re-analysis of the deposited data

How the results depend on the processing

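Between AAR and RM, 124 members were called. The count was 188 with 75th percentile scaling (136 higher), 46 with normexp (23 higher, 23 lower) and 81 with the methods' t-test (44 higher). The count over all probes moved the same way in each of these settings. The stricter filter left 31 lower calls, 69.0% of its calls being higher. Leaving out 1 array gave 56 to 250 calls, 19 to 178 higher and 37 to 72 lower. With the mouse as a replicate block 117 members were called, 71 higher and 46 lower, and among the named members 2 calls were lost, CD354001 and BY133543, and no other changed. The median log2 fold change was 0.14 with normexp in place of 0.32. Between AAR and sham AAR, 40 members were called. The count was 74 with 75th percentile scaling, 25 with normexp and 84 with 1 fit of 6 arrays. It was 0 without a filter on dim probes and 0 with the methods' t-test. The count over all probes moved the same way in each of these settings too. Leaving out 1 array gave 0 to 217 calls. All 17 named calls of this comparison were lost without a filter, with the t-test and without either AAR array. Between RM and sham AAR the count of 0 became 2 with 1 fit of 6 arrays, and leaving out 1 array gave 0 to 156. ENSMUST00000121804, not called against sham AAR (log2 0.20), was -1.46 without sham mouse 013 (adjusted p = 0.0462) and 1.86 without sham mouse 012. The causes of these changes were not tested. Signals near background limit the folds of dim members.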
